A study of Mus musculus with 10 samples.

Results

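The genes described here are 9 regulators of G protein signalling (RGS genes), namely Rgs1, Rgs2, Rgs3, Rgs10, Rgs12, Rgs14, Rgs16, Rgs18 and Rgs19. They were taken by name from the 29700 linear gene rows of the count table, and each had 1 row. Rgs18 was chosen by its measured fall after ox-LDL in these same libraries, so its values are given as a description and no test is attached to them. The cells were peritoneal macrophages from C57BL/6 mice aged 8 weeks, collected after injection of thioglycollate, an irritant that draws monocytes into the peritoneal cavity. The control group of 5 libraries is labelled untreated. The wording of a figure legend of the study allows that the controls also received LPS, and the labels were followed. The ox-LDL group of 5 libraries received lipopolysaccharide (LPS, a bacterial cell wall lipid that activates TLR4) at 100 ng/ml and then oxidized low-density lipoprotein (ox-LDL) at 100 µg/ml for 16 h. LPS and ox-LDL were given together in every treated library, so their effects cannot be told apart, and "ox-LDL" below stands for both agents. The comparison asks how RGS transcripts of macrophages differed after this treatment, in bulk cultures in which fewer cells of a type and less RNA per cell cannot be told apart.

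Receptors that couple to heterotrimeric G proteins load GTP onto a G alpha subunit, which separates from G beta and gamma and acts on its effectors until the GTP is hydrolysed. RGS proteins speed that hydrolysis and so shorten the signal. In macrophages such receptors sense chemokines, complement fragments, formyl peptides, prostaglandins, adenosine and lysophospholipids, and most chemoattractant receptors use the Gi class. Rgs1, Rgs2, Rgs16 and Rgs18 are small proteins with little beyond the RGS domain, and Rgs3 belongs to the same subfamily but has longer forms. Rgs10, Rgs12 and Rgs14 form another subfamily that acts mainly on Gi subunits, and Rgs19 (GAIP) to another one, whose proteins are modified by lipid at cysteines.

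The promoters of Rgs2, Rgs16 and Rgs10 are shown because Rgs2 was called lower after ox-LDL, Rgs10 was called lower only in 7 of 24 alternative fits, and Rgs16 had more counts after ox-LDL. RefSeq promoter windows (assembly GRCm38.p6) matched 6 of the 9 members, and Rgs1, Rgs14 and Rgs18 were not matched. Each sequence is the 250 bases before the annotated start, printed 5′ to 3′ on the strand of the gene, and these 3 genes had 1 window each. Capitals mark the motifs found on either strand. These are the GC box, whose letters are GGGCGG, the box named by its letters CCAAT, and a short cyclic AMP response element with the letters ACGTCA, which is part of the full one. The windows lie at chr1:144004150-144004399 on the minus strand for Rgs2, chr1:153740103-153740352 on the plus strand for Rgs16 and chr7:128418173-128418422 on the minus strand for Rgs10.
Rgs2: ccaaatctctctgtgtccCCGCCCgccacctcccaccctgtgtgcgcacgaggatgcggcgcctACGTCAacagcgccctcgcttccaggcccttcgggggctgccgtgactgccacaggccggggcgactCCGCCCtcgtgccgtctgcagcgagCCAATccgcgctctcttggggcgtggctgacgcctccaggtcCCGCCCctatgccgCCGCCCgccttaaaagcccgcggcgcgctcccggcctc
Rgs16: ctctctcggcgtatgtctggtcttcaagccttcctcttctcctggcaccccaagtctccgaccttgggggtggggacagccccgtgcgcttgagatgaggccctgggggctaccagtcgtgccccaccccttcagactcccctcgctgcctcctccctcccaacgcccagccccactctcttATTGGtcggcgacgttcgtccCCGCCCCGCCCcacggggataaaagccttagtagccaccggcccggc
Rgs10: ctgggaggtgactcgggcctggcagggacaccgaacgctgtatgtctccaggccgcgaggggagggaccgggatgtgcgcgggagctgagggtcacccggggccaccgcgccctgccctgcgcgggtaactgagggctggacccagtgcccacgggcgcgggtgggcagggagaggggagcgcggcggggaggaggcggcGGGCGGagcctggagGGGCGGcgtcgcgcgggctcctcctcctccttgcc

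The window of Rgs2 held 4 GC boxes, a CCAAT box 94 bases before the start and the short response element 186 bases before it. The window of Rgs16 held 2 GC boxes that overlap each other and 1 CCAAT box on the opposite strand, 68 bases before the start. That of Rgs10 held 2 GC boxes and neither of the other marked motifs. Among 32851 mouse promoter windows of the same length, 32.7% held a GC box, 33.8% a CCAAT box and 6.47% the short response element. The AP-1 (TGANTCA), PU.1 (GAGGAAGT) and full cyclic AMP response (TGACGTCA) motifs and the interferon-stimulated response element and NF-kB motif were searched as well, and none of the 3 windows held any of them. In all windows these were found in 6.75%, 2.44%, 1.55%, 2.98% and 7.25%, respectively. The GC content was 72.4% for Rgs2, 66.4% for Rgs16 and 76.4% for Rgs10, all above the upper quartile of all windows (61.2%, with a median of 52.4%). These matches describe the letters of the windows only.

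All libraries had similar depth, from 19257131 to 20687289 counts. Ox-LDL replicate 2 stood apart: its TMM factor (the scale that removes differences in composition between libraries) was 0.593, against 0.837 to 1.19 in the other 9 libraries. Its short genes were also high relative to its long ones. The Spearman correlation across 12644 genes between transcript length and level, each gene centred on the mean of its group, was -0.647. Controls 1 and 4 were tilted the same way relative to their own group (-0.573 and -0.463), and the other libraries had values from 0.0569 to 0.517. Since this centring balances the libraries of a group, the values of control and ox-LDL libraries are not on 1 scale. The tilt touches Rgs10, whose transcript was the shortest of the members (735 bases), and Rgs12, the longest (4021 bases). Summed macrophage markers stood at 23200 to 42900 CPM (counts scaled by library size) in the control and 13400 to 28400 in the ox-LDL libraries, and most of that sum was Lyz2 (20600 to 40900 and 9360 to 26300 CPM). Of the 8 macrophage markers 2 (Adgre1 and Cd14) were called higher and 0 lower by edgeR, beside 9.4% and 5.35% of all genes tested. Their median log2 fold change was 0.59, but Itgam (-0.78) and Lyz2 (-0.67) had negative values and were not called. At an unadjusted p under 0.05, 3 were higher and 0 lower. For that threshold, here and below, the share of all genes was not computed. DESeq2 and limma-voom also called 2 higher and 0 lower. Beside these stand 13.9% and 9.83% of all genes with DESeq2 and 9.0% and 6.26% with limma-voom. Summed LPS-inducible genes stood at 79.5 to 277 CPM in the control and 3200 to 15100 CPM in the ox-LDL libraries, with control 5 the highest of its group. Markers of eosinophils (0.365 to 7.13 CPM), mast cells (0.626 to 11.5), B cells (0.659 to 3.57), T and NK cells (0.991 to 2.25) and dendritic cells (1.54 to 4.00) were low in all libraries, and those of neutrophils were at 61.2 to 201 CPM. Summed eosinophil markers were lower in every ox-LDL library (0.365 to 1.1 CPM) than in any control (2.61 to 7.13). In the controls Siglecf made up most of that sum (2.51 to 6.68 CPM, and 0.261 to 0.621 after ox-LDL), while Prg2 and Ear6 were above 0 only in ox-LDL libraries. Summed stromal markers were higher (66.6 to 176 CPM) than in the controls (17.8 to 60.4). Most of this sum was Dcn, and Upk3b went the other way (0.296 to 0.86 CPM in the control, at most 0.266 after ox-LDL). The part of these cell types in the results below was not tested.

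In the control cells, 2 RGS transcripts made up most of the family. Per transcript length, on the deposited FPKM scale, the control macrophages held Rgs1 at 366 ± 94.5 and Rgs10 at 310 ± 87.9 (SD, n = 5), a difference within their spread. Rgs2 followed at 62.7 ± 6.55, Rgs19 at 51.3 ± 2.30, Rgs18 at 31.7 ± 10.8, Rgs14 at 8.41 ± 1.83, Rgs3 at 4.48 ± 0.516 and Rgs12 at 0.22 ± 0.111 FPKM, and each of these neighbours differed by more than the pooled SD. Rgs16 was lowest of the members at 0.046 ± 0.0288 FPKM, between Rgs7 and Rgs9, from neither of which it differed beyond their spread.

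After ox-LDL the order became Rgs1 (479 ± 105 FPKM), Rgs10 (95.5 ± 41.1), Rgs19 (29.6 ± 6.38), Rgs3 (4.54 ± 1.5), Rgs2 (4.27 ± 3.27), Rgs14 (2.20 ± 1.53), Rgs18 (0.922 ± 1.26), Rgs12 (0.532 ± 0.267) and Rgs16 (0.472 ± 0.388). The top 3 of these differed from the next gene by more than the pooled SD, and the neighbours from Rgs3 to Rgs16 did not. Rgs2 and Rgs18 thus moved from the middle of the order into the group of low transcripts. Dividing TMM-scaled counts by length gave the same order in both groups for 9 of 9 members.

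**Figure D1:**
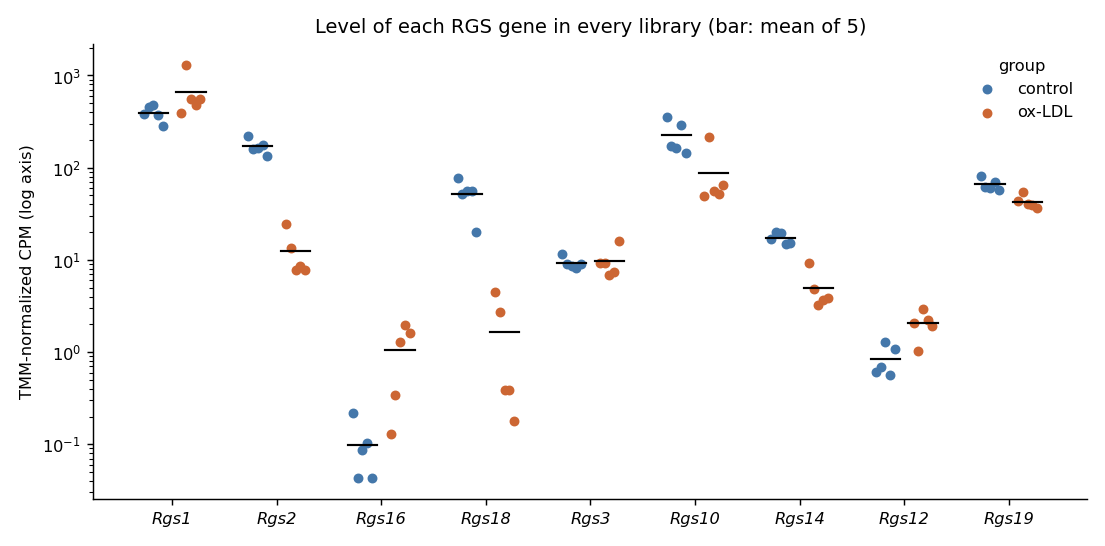
Level of each of the 9 RGS genes in every library, on a log axis of TMM-scaled CPM, with the 5 control libraries and the 5 ox-LDL libraries as separate points and the group means as bars. Rgs2, Rgs14, Rgs19 and Rgs18, which was chosen for its fall, are lower in all 5 ox-LDL libraries than in any control. Rgs1, Rgs3, Rgs10, Rgs12 and Rgs16 overlap. Among all genes tested, 9.11% are lower with no overlap between the groups.

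Before any fold change, 8 of the 9 members passed the filter on low counts, and Rgs16 did not. Of the 7 members tested, Rgs2 and Rgs14 were called lower and 0 were called higher by edgeR's quasi-likelihood test at a Benjamini-Hochberg adjusted p under 0.01. Over all 12654 genes tested, 5.35% were called lower and 9.4% higher (14.7% in either direction). At an unadjusted p under 0.05 the same 7 genes gave 1 higher and 4 lower. The share of all genes at that threshold was not computed. DESeq2 called 1 higher and 3 lower, beside 13.9% and 9.83% of all genes. Limma-voom called 0 higher and 2 lower, beside 9.0% and 6.26%. Without ox-LDL replicate 2, edgeR called 1 higher (Rgs12) and 4 lower (Rgs2, Rgs10, Rgs14 and Rgs19), and the shares over all genes also went up, to 13.5% higher and 11.6% lower. The median log2 fold change of the 7 was -0.62, beside 0.10 over all genes tested. That median of all genes moved to -0.05 with upper-quartile scaling and to -0.09 with library size alone, and changes under those scalings are to be read relative to it.

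Rgs1 is a regulator of chemokine receptor signalling best known from lymphocytes (NCBI gene 50778, mm9 chromosome 1 from 146091102 to 146096372, minus strand). It had the highest mean FPKM of the RGS genes in both groups, although Rgs10 was above it in controls 1 and 4, and it had 6539 to 15301 estimated counts per library. It stood at 379, 457, 482, 377 and 284 CPM in control replicates 1 to 5, and at 387, 1310, 553, 476 and 553 CPM in ox-LDL replicates 1 to 5. The groups overlapped, since ox-LDL replicates 1 and 4 lay within the control range, and replicate 2 alone was far above the rest. The log2 fold change was 0.73 (SE 0.33, edgeR adjusted p = 0.129), or 0.28 with ox-LDL replicate 2 left out. On the FPKM scale, which was not rescaled for composition, the groups overlapped as well.

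Rgs2, which favours the Gq class of alpha subunits, had the largest fall of the tested members (NCBI gene 19735, chromosome 1 from 145846468 to 145851291, minus strand). It stood at 221, 161, 163, 174 and 133 CPM in the control and at 24.4, 13.6, 7.75, 8.66 and 7.76 CPM in the ox-LDL libraries. The groups did not overlap, and the lowest control was far above the highest treated library. Among all genes tested, 9.11% were lower and 11.6% higher with no overlap between the groups. Means were 171 ± 32.0 and 12.4 ± 7.09 CPM (n = 5, SD), and the log2 fold change was -3.78 (SE 0.36, edgeR adjusted p = 2.95e-05). This is a 13.7-fold lower level in the fit. The call held in 24 of 24 alternative fits, with values from -4.18 to -3.64. Rgs2 was the only member called lower when a log2 fold change beyond 2 was also required, a rule under which 1.93% of all genes were called lower and 4.78% higher. Ox-LDL replicate 1 had the highest Rgs2 of its group, 2.97 times the median of the other 4.

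Rgs18, a regulator of Gi and Gq signalling known from platelets, megakaryocytes and myeloid cells, had the largest difference of the members, as it was chosen for (NCBI gene 64214, chromosome 1 from 146599813 to 146622565, minus strand). It had 1396, 1212, 1309, 1085 and 464 estimated counts in the control libraries and 104, 32, 8, 8 and 3 in the ox-LDL libraries. These correspond to 77.2, 51.9, 56.0, 55.9 and 20.2 CPM and to 4.52, 2.74, 0.39, 0.383 and 0.179 CPM. The libraries of each group were uneven. Control 5, the control with the highest LPS-inducible sum, held 0.36 times the median of the other controls, and ox-LDL replicate 1 held 11.7 times the median of its group's other libraries. The lowest control was still above the highest treated library. The group means were 52.2 ± 20.5 and 1.64 ± 1.92 CPM, and the fitted log2 fold change was -4.99 (SE 0.78), a 31.8-fold lower level. It ranged from -5.96 without ox-LDL replicate 1 to -4.19 on the log2(FPKM + 1) scale over 23 alternatives. With 3 to 104 counts per treated library, the size of its difference rests on few counts.

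Since Rgs18 is abundant in platelets, the platelet and megakaryocyte markers were set beside it. Their summed level was 29.0 to 75.8 CPM in the control and 63.2 to 351 CPM in the ox-LDL libraries, and the highest sum was in ox-LDL replicate 2. Nearly all of that sum was Pf4, a chemokine that macrophages also make. Clec1b stood at 1.52 to 4.21 CPM in the control and 0.788 to 5.31 CPM in the ox-LDL libraries. The other 9 of the 11 rows were at most 0.584 CPM in any library. Among them Treml1, Tubb1 and Gp1ba were above 0 in every control, Ppbp and Gp1bb were at 0 in every control, and Gp9 was at 0 in all 10 libraries. The part of platelets in the Rgs18 values was not tested.

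Rgs16 is a small inducible regulator (NCBI gene 19734, chromosome 1 from 155587479 to 155592598, plus strand). It had 4, 1, 2, 2 and 1 estimated counts in the control and 3, 4, 26, 41 and 27 in the ox-LDL libraries. Ox-LDL replicates 1 and 2 lay at the level of the controls, and replicates 3, 4 and 5 were far above it. The summed counts were 10 and 101, a ratio of 10.4 after scaling by library size, with a 95% exact interval of 5.41 to 22.3 that covers counting error only. A fit with no filter on low counts gave a log2 fold change of 3.33 (SE 0.70, edgeR adjusted p = 0.00123), and limma on log2(FPKM + 1) with no filter gave 0.45 (adjusted p = 0.127).

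Rgs3, which acts on Gi and Gq subunits, was not called in either direction (NCBI gene 50780). The gene lies on chromosome 4 from 62220881 to 62364052, plus strand, and is overlapped on the opposite strand by Gm11209. It stood at 11.6, 9.12, 8.60, 8.14 and 9.12 CPM in the control and at 9.35, 9.33, 6.93, 7.37 and 16.2 CPM in the ox-LDL libraries. The groups overlapped over most of their range. The log2 fold change was 0.08 (SE 0.24, edgeR adjusted p = 0.849), its sign turned to -0.09 with upper-quartile scaling and to -0.12 with library size alone, and without ox-LDL replicate 5 it was -0.18.

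Rgs10, a regulator of Gi signalling known in microglia and macrophages, had the second highest mean FPKM of the members (NCBI gene 67865, chromosome 7 from 135517135 to 135562272, minus strand, overlapped on the same strand by Gm15503). It stood at 355, 172, 163, 288 and 146 CPM in the control and at 49.6, 215, 56.2, 52.3 and 64.3 CPM in the ox-LDL libraries. The groups overlapped through ox-LDL replicate 2 alone, and the other 4 treated libraries were below every control. Controls 1 and 4, whose short genes were also high, held 2.12 and 1.72 times the median of the other controls. The log2 fold change was -1.36 (SE 0.45, edgeR adjusted p = 0.0426), which did not pass the threshold. With ox-LDL replicate 2 left out it was -2.06 (adjusted p = 0.000246), and with the length trend of each library removed it was -1.39 (adjusted p = 5.22e-05). On the FPKM scale the groups did not overlap, with 224.23 to 429.26 in the control and 72.19 to 168.81 in the ox-LDL libraries. The call was made in 7 of 24 alternative fits, all with the same direction.

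Rgs14, a scaffold that joins RGS, Ras-binding and GoLoco domains, was called lower (NCBI gene 51791, chromosome 13 from 55471093 to 55486048, plus strand). It stood at 16.9, 20, 19.6, 14.9 and 15.4 CPM in the control and at 9.17, 4.79, 3.27, 3.64 and 3.82 CPM in the ox-LDL libraries. The groups did not overlap, and ox-LDL replicate 1 was again the highest of its group. Means were 17.4 ± 2.37 and 4.94 ± 2.43 CPM (n = 5, SD), and the log2 fold change was -1.81 (SE 0.28, edgeR adjusted p = 0.000727), a level 3.50-fold lower in the fit. All 24 alternative fits made this call, with values from -2.17 to -1.64.

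Rgs12, the longest of the members and a relative of Rgs14 with the same domains, was scarce (NCBI gene 71729, chromosome 5 from 35292094 to 35382293, plus strand, overlapped on the same strand by AC126447.1). It had 11, 16, 30, 11 and 25 estimated counts in the control and 48, 12, 60, 47 and 32 in the ox-LDL libraries, or 0.608, 0.685, 1.28, 0.567 and 1.09 CPM and 2.09, 1.03, 2.93, 2.25 and 1.91 CPM. Ox-LDL replicate 2 lay within the control range, and the other 4 treated libraries lay above it. The log2 fold change was 1.27 (SE 0.36, edgeR adjusted p = 0.0217). Leaving out ox-LDL replicate 2 gave 1.39 (adjusted p = 0.00641). The call was made in 4 of 22 alternative fits.

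Rgs19 binds Gi and Gz subunits (NCBI gene 56470, chromosome 2 from 181423124 to 181428682, minus strand). It stood at 80.8, 61.2, 60.4, 69.6 and 57.6 CPM in the control and at 44.0, 53.9, 40.4, 39.4 and 36.4 CPM in the ox-LDL libraries. The groups did not overlap, although the gap between the lowest control and ox-LDL replicate 2 was small. The log2 fold change was -0.62 (SE 0.17, edgeR adjusted p = 0.018), which did not pass the threshold. Leaving out ox-LDL replicate 2 gave -0.76 (adjusted p = 0.00187). It was called in 7 of 24 alternative fits, and the direction was the same in all 24.

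**Figure D2:**
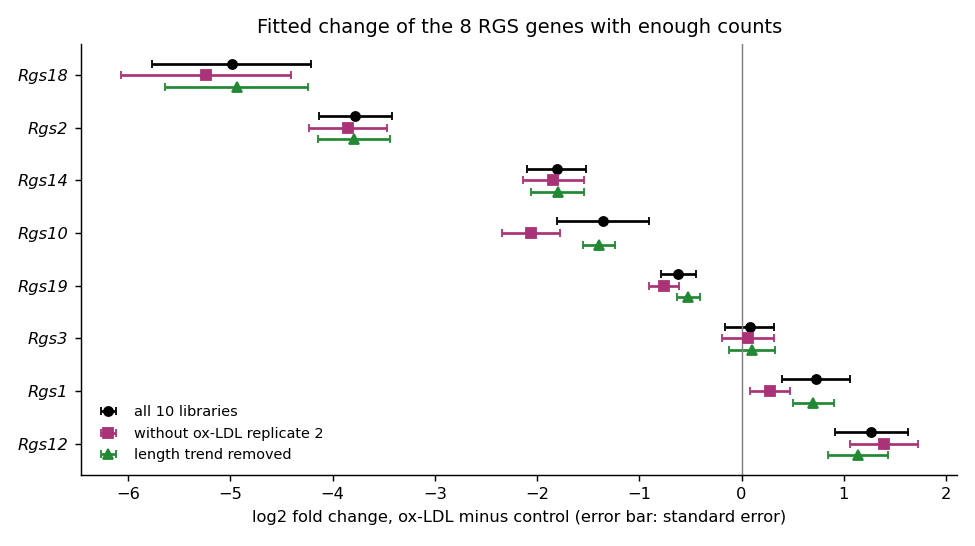
Log2 fold change of the 8 members that passed the filter, ox-LDL minus control, on a linear axis with bars of 1 standard error, from all 10 libraries, without ox-LDL replicate 2 and with the length trend of each library removed. Rgs10 moves from -1.36 to -2.06 and Rgs1 from 0.73 to 0.28 without ox-LDL replicate 2, while Rgs2, Rgs14 and Rgs18 stay far below 0.

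Rgs1 made up more of the RGS transcripts after ox-LDL. Of the summed FPKM of the 20 genes named Rgs with a row, Rgs1 took 32.8, 51.1, 53.1, 37.3 and 44.5% in the control and 73.5, 76.2, 80.6, 78.8 and 78.7% in the ox-LDL libraries. These shares did not overlap, whereas the Rgs1 levels themselves did. The share of Rgs10 went from 37.1 ± 8.66% to 15.1 ± 2.84%, that of Rgs2 from 7.56 ± 0.534% to 0.738 ± 0.64% and that of Rgs18 from 3.69 ± 0.927% to 0.157 ± 0.237%. The shares of 1 library sum to a fixed whole, so a higher share of Rgs1 includes the lower levels of the others. The sum itself was 902, 879, 915, 844 and 634 FPKM in the control and 538, 847, 632, 574 and 498 FPKM in the ox-LDL libraries, and the groups overlapped through control 5 and ox-LDL replicate 2.

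**Figure D3:**
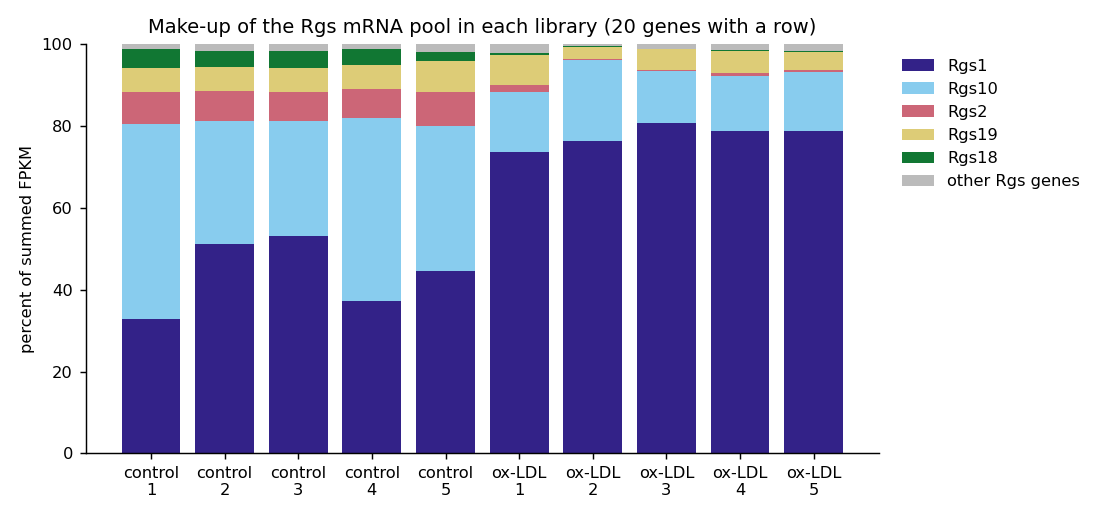
Share of each gene in the summed FPKM of the 20 Rgs genes with a row, in percent, stacked on a linear axis that starts at 0, with the 5 control libraries followed by the 5 ox-LDL libraries. Rgs1 and Rgs10 fill most of each control bar, and Rgs1 alone takes 73.5 to 80.6% of each ox-LDL bar.

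Ratios within a library do not depend on its scaling, but they can still hold its length tilt. Rgs1 has 1147 bases and Rgs10 has 735. Controls 1 and 4, whose short genes were high, had the lowest ratios of Rgs1 to Rgs10 (0.689 and 0.838). The FPKM ratio of Rgs1 to Rgs10 was 0.689 to 1.90 in the control and 3.82 to 6.34 in the ox-LDL libraries, and ox-LDL replicate 2 (3.82) lay above every control although its Rgs10 level did not lie below them in CPM. Rgs1 over Rgs2 was 4.22 to 7.30 in the control and 39.2 to 231 after ox-LDL. Rgs1 over Rgs18 was 7.28 to 21.1 in the control and 128 to 4360 after ox-LDL. The ratio of Rgs2 to Rgs18, the pair with the largest differences, was 1.72 to 1.88 in controls 1 to 4 and 3.98 in control 5, and ranged from 2.97 to 25.1 in the ox-LDL libraries, so the 2 genes did not keep a fixed ratio.

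Of the members, 4 lie on chromosome 1. Rgs2, Rgs13, Rgs1 and Rgs18 follow each other there on the minus strand within 776 kb. Rgs21, annotated between Rgs1 and Rgs18, matched no row of the count table. Rgs16 is apart from them, 8964913 bases further along. Rgs1 is 503 kb from Rgs18, and 66.6 kb from Rgs13, which is 135 kb from Rgs2. Rgs2 and Rgs18 at the ends of the stretch were lower in all ox-LDL libraries, whereas Rgs1 between them overlapped between the groups and Rgs13 had 0 to 3 counts in every library. Next to Rgs2 on its outer side, Glrx2 (log2 fold change 0.35, SE 0.38, edgeR adjusted p = 0.541) and Uchl5 (0.59, SE 0.22, adjusted p = 0.0631) were not called.

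**Figure D4:**
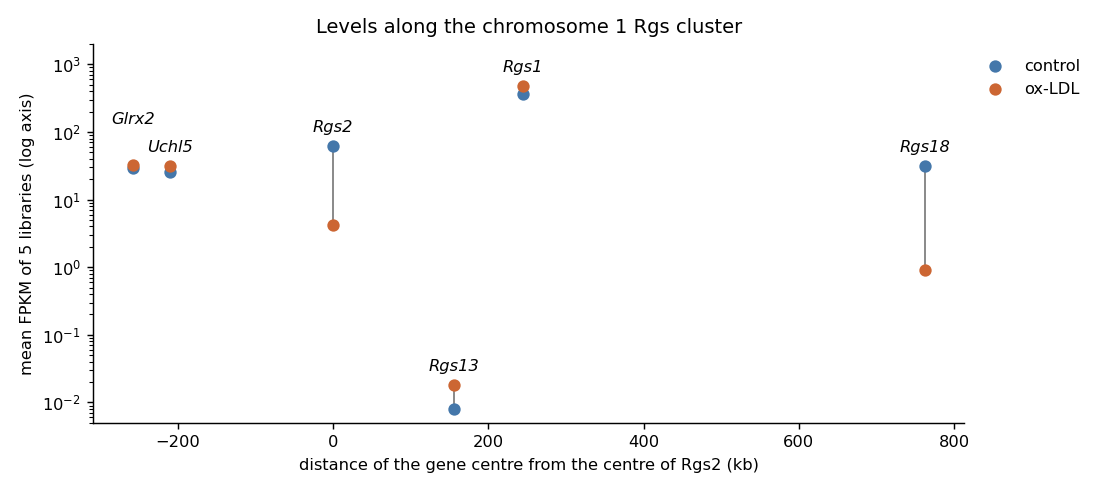
Mean FPKM of 5 control and 5 ox-LDL libraries, on a log axis, for the genes of the chromosome 1 Rgs cluster and the genes beside it, placed by the distance in kb of each gene centre from that of Rgs2, with a grey line joining both groups of a gene. Rgs2 goes from 62.7 to 4.27 and Rgs18 from 31.7 to 0.922 FPKM, while Rgs1 between them goes from 366 to 479.

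The other genes named Rgs were scarce. Rgs7, a neuronal regulator that pairs with Gnb5, was the only one to pass the filter, with 16, 31, 84, 26 and 26 estimated counts in the control and 196, 24, 128, 549 and 11 in the ox-LDL libraries. Its groups overlapped, and its log2 fold change of 2.40 (SE 0.79, edgeR adjusted p = 0.0418) was not called by edgeR or limma-voom and was called by DESeq2. Rgs17 had 1, 0, 0, 0 and 0 counts in the control and 4, 1, 32, 18 and 7 in the ox-LDL libraries. Summed over 5 libraries, Rgs9 had 10 control and 48 ox-LDL counts (ratio 4.92, 95% exact counting interval 2.46 to 10.9), Rgs6 had 12 and 29 (2.48, 1.23 to 5.33) and Rgs11 had 28 and 27 (0.989, 0.561 to 1.74). Single libraries carried much of these ratios, since that of Rgs6 was 1.38 without ox-LDL replicate 4, which held 16 of its 29 counts, and that of Rgs9 was 7.88 without control 3 and 3.36 without ox-LDL replicate 5. Rgs4, Rgs5, Rgs8, Rgs13, Rgs20 and Rgs22 had at most 5 counts in any library.

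The genes most like a member in their pattern were named by the root mean square difference of centred log2 CPM over the 10 libraries, among 11927 tested genes with a symbol. For Rgs18 these were Ifitm6 (0.58), Cmbl (0.64) and Tmem273 (0.80), where the closest 1% of genes lay within 1.78 and the median gene at 3.10. For Rgs2 they were Sesn1 (0.35), Echdc3 (0.36) and Gpr183 (0.40), against 0.87 and 2.06. For Rgs1 they were Slc35b1 (0.15), Zfp992 (0.16) and Ufd1 (0.19), against 0.31 and 0.76. The genes like Rgs1 shared its high value in ox-LDL replicate 2, with up to 142 CPM for Slc35b1. All these distances share the same libraries, and they describe likeness only.

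The other lists of G protein signalling were read beside the 9.4% of all genes called higher and the 5.35% called lower by edgeR. With DESeq2 these shares were 13.9% and 9.83%, and with limma-voom 9.0% and 6.26%. At an unadjusted p under 0.05 they were not computed. Differences between lists were not tested. Among 13 other tested proteins with an RGS homology domain, 1 was called higher and 0 lower, with a median log2 fold change of -0.08. That gene was Grk3, a kinase of activated receptors, which rose from 4.34 ± 0.36 to 11.7 ± 3.02 CPM (log2 fold change 1.43, SE 0.21, edgeR adjusted p = 0.000435). In the same list 1 gene was higher and 4 were lower at an unadjusted p under 0.05, DESeq2 called 3 lower, and limma-voom called 0 lower.

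Of 10 G alpha subunits, the targets of RGS proteins, 1 was called in each direction and the median was -0.06. Gna13 and Gna12, which together form a class of their own among the alpha subunits, went in opposite directions. Gna13 rose from 128 ± 17.4 to 408 ± 134 CPM (log2 fold change 1.67, SE 0.25, edgeR adjusted p = 0.000572), and Gna12 fell from 90.9 ± 14.3 to 39.6 ± 11.8 CPM (-1.20, SE 0.23, adjusted p = 0.00233). The Gi and Gq subunits on which the members act were not called, with log2 fold changes of -0.41 for Gnai2 (adjusted p = 0.249), -0.04 for Gnai3 (0.922) and -0.09 for Gnaq (0.753).

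Of 11 G beta and gamma subunits, edgeR called 0 in either direction (2 higher and 1 lower at an unadjusted p under 0.05, 1 higher by DESeq2 and 0 by limma-voom), with a median of -0.04. Of 9 other modulators of G alpha and arrestins it also called 0 (1 higher and 2 lower at an unadjusted p under 0.05, 0 by DESeq2 and limma-voom), with a median of -0.14. Of 12 effectors 1 was called higher and 0 lower, with a median of -0.16. It was Pde4b, a phosphodiesterase that degrades cyclic AMP, which rose from 3.11 ± 0.487 to 18.1 ± 11.7 CPM (log2 fold change 2.54, SE 0.38, edgeR adjusted p = 0.000521). At an unadjusted p under 0.05 the effectors had 2 higher and 3 lower, DESeq2 called 2 lower and limma-voom 0.

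Of 38 G protein-coupled receptors of myeloid cells, 11 were called higher and 7 lower, with a median log2 fold change of 0.25. The largest changes were those of Fpr2 (7.26, SE 0.61, edgeR adjusted p = 1.59e-05), Hcar2 (6.09, SE 0.86, adjusted p = 0.000371) and Fpr1 (5.54, SE 0.83, adjusted p = 0.00054). These receptors were scarce in the control and uneven after ox-LDL. Fpr2 stood at 2.39 ± 1.54 and 370 ± 222 CPM, Hcar2 at 2.29 ± 1.69 and 157 ± 144, and Fpr1 at 1.09 ± 0.588 and 51.6 ± 69.5. Fpr1 and Fpr2 sense formyl peptides and Hcar2 senses hydroxybutyrate and niacin, and all of them signal through Gi. Other called receptors were also scarce in 1 group, such as Ccr7 (mean 0.157 CPM in the control and 4.89 after ox-LDL) and C5ar2 (2.65 and 0.16). The LPS-inducible list, set beside the receptors as a measure of the LPS response, had 12 of 13 genes called higher and 0 lower, with a median of 6.69. In it Il6 and Il12b were also scarce in the control (0.0457 and 0.186 CPM). Genes like these can pass the filter through their high group alone, and they are part of the counts of calls.

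**Figure D5:**
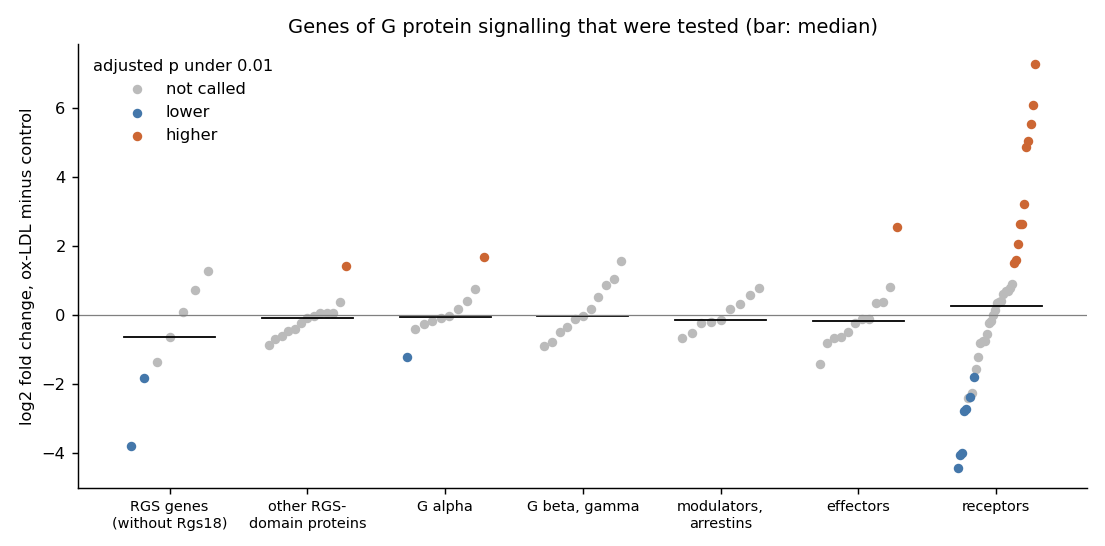
Log2 fold change, ox-LDL minus control, of each tested gene of the members (without Rgs18) and of the other lists of G protein signalling, in 1 column of points per list on a linear axis, with a bar at the median and colours for genes called at an adjusted p under 0.01. Rgs2 and Rgs14 are called among the members, the G beta and gamma list has 0 calls, and the receptors spread most widely, up to 7.26 for Fpr2.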

How the data were processed

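RNA of peritoneal macrophages was sequenced in 5 control and 5 ox-LDL libraries, described by the submitters as biological replicates. The deposited estimated counts and FPKM values came from the authors' pipeline, whose notes name HISAT2 2.0.5, SAMtools 1.4, StringTie 1.3.3.13, FastQC and the mm9 build. The counter and whether strand was used are not given in the sources used here. Estimated counts as deposited were not whole in 13.6% of values and were rounded. The authors' FPKM values divide by length and depth only. Of 39488 rows, 9788 circular RNA rows (1.44 to 2.24% of counts) were left out. Symbols came from NCBI gene IDs (22818 of 23382 matched a RefSeq table) and coordinates from the GENCODE annotation of mm9.

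Genes passing edgeR's filterByExpr (12654) were tested with the edgeR 4.0.16 quasi-likelihood test (robust, TMM, R 4.3.3), called at a Benjamini-Hochberg adjusted p under 0.01, with DESeq2 1.42.0 and limma 3.58.1 as alternatives. SE is the absolute log2 fold change divided by the square root of F. CPM are TMM-scaled except in marker sums, which use library size. The script was tested on simulated data. No 2 libraries of a group agreed within sampling noise. Intervals of count ratios are conditional exact ones.

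The members, gene lists and tests were chosen with earlier results of these data known. The text names all members, all other Rgs genes, the 3 largest called changes of each list of G protein signalling (fewer where fewer were called) and the 3 genes nearest in pattern to Rgs18, Rgs1 and Rgs2. Gnai2, Gnai3 and Gnaq, the genes beside Rgs2 and single platelet and macrophage markers were named after their values were seen. Rgs16, which did not pass the filter, was left out of that search for like patterns.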

Additional observations from a re-analysis of the deposited data

Results flagged for a closer look

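In 10 of 40 groups of 5 libraries examined (members and marker sums), the highest or lowest library stood apart by Dixon's test. Chance would give about 2 if the groups were independent and normally spread. They share the same 10 libraries and use CPM without logarithms, so the excess over 2 is no measure of departure from chance. For each of the 10, the gap to the nearest library is over 0.71 of the whole range of the group.

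Among the members, ox-LDL replicate 2 was the high library for Rgs1 (1310 CPM, next 553) and for Rgs10 (215 CPM, next 64.3), the 2 members with the highest mean FPKM in both groups and the shortest transcripts. Rgs14 was high in ox-LDL replicate 1 (9.17 CPM, next 4.79), the library that was also highest of its group for Rgs2 and Rgs18. Rgs3 was high in control 1 (11.6 CPM, next 9.12) and in ox-LDL replicate 5 (16.2 CPM, next 9.35).

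Among the summed markers, control 5 stood apart with 277 CPM of LPS-inducible genes (next 116), and it was the lowest control for Rgs1, Rgs2, Rgs10, Rgs18 and Rgs19. Control 4 was high for the sum of large resident peritoneal macrophage markers (33.7 CPM, next 14.2) and of dendritic cell markers (2.73 CPM, next 1.79). Single genes carried both sums, namely Vsig4 with 22.1 CPM and Cd209a with 1.93 CPM. Gata6 was higher in control 3 (2.07 CPM) than in control 4 (1.22 CPM), and Flt3, Xcr1 and Siglech were at 0 in control 4. Ox-LDL replicate 5 was high for mast cell markers (4.09 CPM, next 1.42), and ox-LDL replicate 3 was low for T and NK cell markers (0.991 CPM, all of it Lck, next 1.57). Whether any of these libraries differed for a technical reason was not tested.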

How the results depend on the processing

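The calls of Rgs2 and Rgs14 and the direction of every tested member other than Rgs3 held in all alternative fits that gave a value. The number of members called higher became 1 with DESeq2, with the length trend removed, at an adjusted p under 0.05 and without control 5 and ox-LDL replicate 2 together (an alternative chosen after seeing the data), each time Rgs12, and 1 with no filter on low counts (Rgs16). It was 0 to 1 when single libraries were left out. The number called lower became 4 (Rgs2, Rgs10, Rgs14 and Rgs19) with limma on log2(FPKM + 1) or log2(FPKM + 0.1), with the length trend removed, at an adjusted p under 0.05 and without both libraries, 1 (Rgs2) when a log2 fold change beyond 2 was also required, and 2 to 4 when single libraries were left out. Over the whole table, 1866 genes became 3009 with DESeq2, 1243 with limma on log2(FPKM + 0.1), 1027 with limma on log2(FPKM + 1) and no filter, 2866 with the length trend removed, 3326 without both libraries (12858 genes tested) and 1262 to 3257 when single libraries were left out, 3257 being without ox-LDL replicate 2. With limma on log2(FPKM + 1), which does not correct for composition, 555 genes were called higher and 750 lower, against 1189 and 677. The 22 called genes of the other G protein lists became 31 with DESeq2 and 30 with the length trend removed. Their number was 14 with limma on log2(FPKM + 1) and no filter, and 20 to 26 when single libraries were left out. Rgs3 changed sign to -0.09 with upper-quartile scaling, -0.12 with library size alone, -0.02 with limma on log2(FPKM + 1) with or without the filter, -0.03 with log2(FPKM + 0.1) and -0.18 without ox-LDL replicate 5, and lay between -0.18 and 0.18 when single libraries were left out. The causes were not tested. With at least 10 counts in every library required, Rgs18 had no value. Rgs16 was fitted only with no filter, by edgeR (3.33, adjusted p = 0.00123) and by limma on log2(FPKM + 1) (0.45, adjusted p = 0.127).

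The deviations of libraries with the same replicate number had correlations of 0.0238, -0.272, 0.443, -0.285 and 0.411, without a common sign. These deviations also hold the length tilt of each library, so they cannot decide whether the numbers pair the samples. With the replicate number as a block, 885 genes were called higher and 549 lower over the whole table. Of the members, 0 were called higher and 2 lower, with log2 fold changes of -3.91 for Rgs2, -1.91 for Rgs14 and -5.62 for Rgs18, the last as a description.

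At this depth Rgs12 and Rgs16 rest on at most 60 and 41 counts in any library, and Rgs18 on 3 to 104 counts in the ox-LDL libraries.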
